A study of Mus musculus with 15 samples.

Results

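The 10 genes followed here belong to the contractile apparatus of vascular smooth muscle (of 18193 genes on the array) and were measured in the aortas of diabetic and non-diabetic mice. They were Acta2, Myh11, Tagln, Cnn1, Smtn, Lmod1, Myocd, Des, Myl9 and Mylk, and every probe set annotated to exactly 1 gene, that gene being one of these, was taken. This gave 17 of 45037 probe sets, namely 3 each for Acta2 and Mylk, 2 each for Myh11, Myocd and Des, and 1 for each of the other 5 genes. RNA came from the whole aorta, root to bifurcation, of male C57BL/6 mice aged 9 weeks, with 1 array per mouse and 15 arrays in all.

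All mice were ApoE-/-, that is, they lacked apolipoprotein E, a lipid carrier, so no group stands for a normal aorta. Diabetic mice had received 5 daily injections of streptozotocin, a toxin of pancreatic beta cells, at 65 mg/kg from 6 weeks of age, and non-diabetic mice citrate buffer alone. The 4 groups were 4 non-diabetic and 4 diabetic ApoE-/- mice (Apoe null below), and 3 non-diabetic and 4 diabetic ApoE-/- RAGE-/- mice (Apoe/RAGE null), which also lacked the receptor for advanced glycation end products. The group of 3 had lost 1 mouse whose RNA gave no labelled product. Mice lacking ApoE alone are labelled as from a commercial supplier and those lacking RAGE as well as from a research laboratory, so RAGE genotype and source cannot be told apart. Mice are numbered 1 to 15 across the groups, with no pairing. For arrays no depth applies, their number limits the precision of every value, and p-values measure the spread between the mice as labelled.

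Smooth muscle cells of the arterial media shorten when myosin light chain kinase phosphorylates the regulatory light chain of myosin, which lets smooth muscle myosin pull on filaments of smooth muscle alpha-actin. The genes for these proteins share a regulator, serum response factor (SRF), which binds a short element named the CArG box and is driven in smooth muscle by its coactivator myocardin. High expression of the group marks the contractile state of these cells, and its loss is a known feature of smooth muscle that has turned to growth and matrix production in diseased vessels.

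Because the members share this regulator, their promoters were searched for the CArG box, spelled as its name implies on either strand (the element is its own reverse complement), both exactly and with 1 substitution in its A/T core. The RefSeq promoter table (GRCm38.p6) held windows from 250 bases before to 50 bases after the start for 7 of the 10 genes, those of Des, Lmod1, Myl9, Cnn1, Smtn, Mylk and Acta2. An exact match was present in 1 of these 7 windows, against 1.63% of all 32851 windows, and a match allowing 1 substitution in 2 of 7, against 9.98% of all windows. The 250 bases before the start of these 2 genes are shown since they carry the only matches, with the CArG matches in capitals. They lie at chr19:34255374-34255623 on the minus strand for Acta2 and at chr2:156775214-156775463 on the plus strand for Myl9.
Acta2: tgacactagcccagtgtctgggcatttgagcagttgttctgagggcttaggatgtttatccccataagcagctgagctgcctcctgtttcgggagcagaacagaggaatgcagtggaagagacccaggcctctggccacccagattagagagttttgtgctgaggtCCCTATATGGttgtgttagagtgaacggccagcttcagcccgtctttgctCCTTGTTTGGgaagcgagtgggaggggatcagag
Myl9: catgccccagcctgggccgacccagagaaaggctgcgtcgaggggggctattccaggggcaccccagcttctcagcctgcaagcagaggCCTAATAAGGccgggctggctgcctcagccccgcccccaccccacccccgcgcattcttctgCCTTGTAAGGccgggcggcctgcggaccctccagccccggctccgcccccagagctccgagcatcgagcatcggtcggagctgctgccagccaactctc
In Myl9 the exact match CCTAATAAGG began 161 bases before the start and CCTTGTAAGG, with 1 substitution, 99 bases before it. In Acta2 both matches, CCCTATATGG at 84 and CCTTGTTTGG at 34 bases before the start, carried 1 substitution. No match in the other 5 windows says only that these letters are not in this window.

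The array medians lay between 4.35 and 4.42 (log2). The deposited levels had been normalized to nearly the same distribution, so these medians do not show that the arrays were alike. Ager, the gene for RAGE, does not check the genotype: one probe set lay between 3.08 and 3.66 on all arrays, and the other between 4.17 and 5.36 with its means higher in the Apoe/RAGE null groups, and whether either reads the deleted stretch is not given in the sources used here. Apoe itself lay between 3.14 and 4.04 in all groups. Diabetic Apoe/RAGE null replicates 9 and 10 had been seen to stand apart at genes neighbouring Ager, which was not examined here. Many of the counts and medians that use this group are therefore also given without those 2 arrays. A value given only with them may change when they are left out. Skeletal muscle transcripts, which are foreign to the vessel wall, varied widely, and the mean of the 15 skeletal muscle markers, each centred on its mean over arrays, ran from -1.98 to 2.63 (log2). In diabetic Apoe/RAGE null aortas this score was 0.78 to 2.63, and in their non-diabetic counterparts -1.98 to -1.24. In Apoe null aortas it was -1.02 to 1.51 with diabetes and -1.73 to 1.18 without.

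The genes for actin and myosin came first. Acta2, smooth muscle alpha-actin, was read by 3 probe sets. The brightest lay between 13.19 and 13.45 (log2) on all 15 arrays. On some of them it was the brightest probe set of the array (the distance below the array's maximum was 0.00 to 0.38). Whether a ceiling of the signal narrowed its spread was not tested. This probe set is also of a kind (_s_at) whose probes can match more than 1 transcript.

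The second Acta2 probe set by level showed a wider spread. It read 9.84, 9.47, 9.76 and 9.68 in diabetic Apoe null replicates 1 to 4, and 9.25, 9.17, 8.53 and 8.97 in diabetic Apoe/RAGE null replicates 9 to 12. It read 8.54, 9.49, 9.35 and 9.00 in non-diabetic Apoe null replicates 5 to 8, and 9.13, 9.28 and 9.14 in non-diabetic Apoe/RAGE null replicates 13 to 15. All 4 diabetic Apoe null arrays were thus above all 4 diabetic Apoe/RAGE null arrays, while one of them overlapped the non-diabetic Apoe null arrays. The third had a mean of 7.0 ± 0.46 (SD, n = 4) in Apoe null aortas with diabetes and 6.91 ± 0.54 (SD, n = 4) without it. The same probe set had a mean of 6.54 ± 0.41 (SD, n = 4) in Apoe/RAGE null aortas with diabetes and 7.07 ± 0.08 (SD, n = 3) without it.

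Myh11, the smooth muscle myosin heavy chain, read 12.48, 12.09, 12.45 and 12.07 in diabetic and 12.01, 12.40, 12.39 and 12.15 in non-diabetic Apoe null aortas (its brighter probe set). In Apoe/RAGE null aortas it read 12.25, 11.89, 11.75 and 12.14 with diabetes and 12.38, 12.32 and 12.01 without. The groups overlapped in every comparison, and the lowest 2 readings were those of diabetic Apoe/RAGE null replicates 10 and 11. The second Myh11 probe set lay between 7.17 and 8.09, and its groups overlapped as well.

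The actin-binding proteins followed the same arrays. Cnn1, calponin, which binds actin and restrains the myosin motor, read 11.52, 10.98, 11.74 and 11.14 in diabetic and 10.90, 11.56, 11.42 and 10.98 in non-diabetic Apoe null aortas. It read 11.11, 10.81, 10.47 and 10.97 in diabetic and 11.32, 11.28 and 10.92 in non-diabetic Apoe/RAGE null aortas. Replicates 1, 3, 6 and 7 gave the 4 highest readings, 2 of them diabetic and 2 not.

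Smtn, smoothelin, a cytoskeletal protein found in contractile smooth muscle, read 10.90, 10.21, 11.03 and 10.38 in diabetic and 10.27, 10.89, 10.80 and 10.30 in non-diabetic Apoe null aortas. In Apoe/RAGE null aortas it read 10.30, 9.96, 9.69 and 10.39 with diabetes and 10.63, 10.59 and 10.09 without. As for Cnn1, replicates 1, 3, 6 and 7 were the highest and replicate 11 the lowest.

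Tagln, transgelin or SM22-alpha, an early marker of the smooth muscle lineage, had means of 13.07 ± 0.12 (SD, n = 4) with diabetes and 13.01 ± 0.14 (SD, n = 4) without in Apoe null aortas. In Apoe/RAGE null aortas the means were 12.91 ± 0.16 (SD, n = 4) with diabetes and 13.06 ± 0.09 (SD, n = 3) without. Like the brightest Acta2 probe set it read near the top of the scale. Lmod1, leiomodin 1, which nucleates actin filaments, had means between 9.21 ± 0.18 (SD, n = 4) in diabetic Apoe/RAGE null and 9.34 ± 0.26 (SD, n = 4) in diabetic Apoe null aortas. Its groups accounted for 4.1% of its variance over the 15 arrays, the least of the 17 probe sets.

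Both genes of light chain phosphorylation had the same order of groups. Myl9, the regulatory light chain, read 12.92, 12.50, 13.01 and 12.45 in diabetic Apoe null and 12.54, 12.29, 12.06 and 12.55 in diabetic Apoe/RAGE null aortas, with 12.18, 12.80, 12.75 and 12.45 in non-diabetic Apoe null and 12.76, 12.68 and 12.44 in non-diabetic Apoe/RAGE null aortas. Mylk, the kinase, read 11.38, 10.93, 11.20 and 11.21 in diabetic Apoe null and 10.996, 10.86, 10.61 and 11.02 in diabetic Apoe/RAGE null aortas with its brightest probe set. In non-diabetic aortas it read 10.76, 11.20, 11.15 and 10.87 in Apoe null and 11.13, 11.08 and 10.93 in Apoe/RAGE null mice. For both genes the ranges of the diabetic groups overlapped.

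Myocd, the coactivator of SRF, had the widest differences among the brighter probe sets. Its brighter probe set read 10.08, 9.49, 10.34 and 10.60 in diabetic Apoe null replicates 1 to 4, and 10.20, 8.93, 8.88 and 9.46 in diabetic Apoe/RAGE null replicates 9 to 12. The non-diabetic arrays lay between these extremes, with 9.40, 9.73, 9.89 and 9.58 in Apoe null and 9.62, 9.89 and 9.85 in Apoe/RAGE null mice. Replicate 9 read well above the other 3 arrays of its group, and replicates 10 and 11 were the lowest of all 15. The second Myocd probe set lay between 4.79 and 6.09.

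Des, desmin, the muscle intermediate filament protein, departed from the rest. Its brighter probe set read 7.84, 7.79, 8.19 and 7.87 in diabetic Apoe null and 8.41, 8.17, 8.15 and 8.53 in diabetic Apoe/RAGE null aortas. It read 7.57, 8.31, 7.80 and 8.67 in non-diabetic Apoe null and 8.10, 7.70 and 8.02 in non-diabetic Apoe/RAGE null aortas. Diabetic Apoe/RAGE null aortas were thus highest in mean for Des, whereas they were lowest in mean for all 15 probe sets of the other 9 genes. The second Des probe set lay between 3.34 and 4.21, below the median level of every array, so Des rests on 1 probe set.

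**Figure D1:**
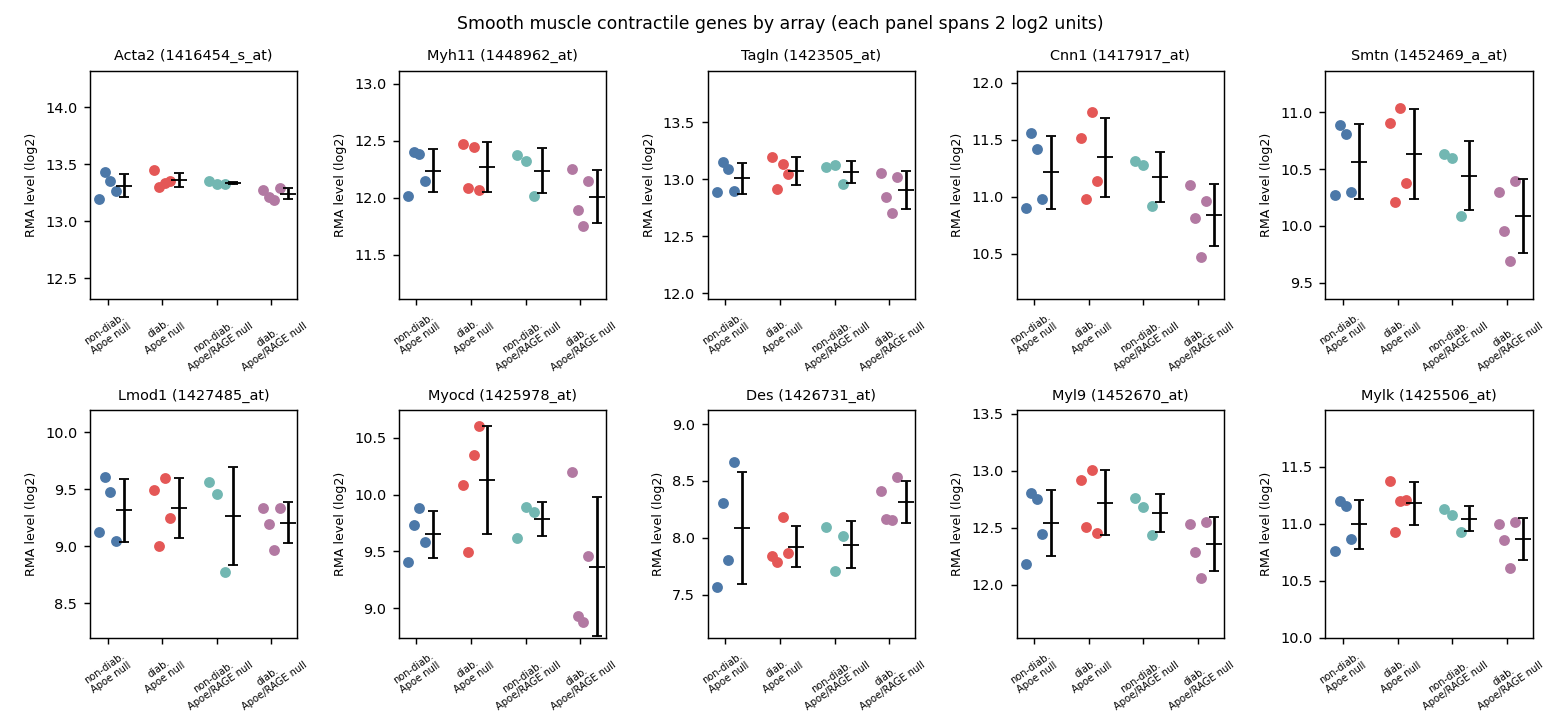
RMA level (log2) of the brightest probe set of each of the 10 genes, 1 point per array, by group; the black bar and whiskers give the group mean and SD, and each panel spans 2 log2 units. The groups overlap widely in most panels, and for Des the diabetic Apoe/RAGE null group (mean 8.32) is the highest, while for Cnn1 (10.84) and Smtn (10.09) it is the lowest.

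The question of the first comparison was the effect of diabetes where RAGE is present. In Apoe null aortas the contractile genes were little apart: 9 of the 10 genes had a positive difference (diabetic minus non-diabetic) and the median was 0.07 (log2), with -0.00090 over all genes. The largest were Myocd (0.48 ± 0.27, SE) and, for single probe sets, the second of Acta2 (0.59 ± 0.19, SE, limma adjusted p = 0.347). Des was the one with a negative value (-0.17 ± 0.19, SE). The threshold for a call was a limma p of 0.05 adjusted for all probe sets by Benjamini-Hochberg, which 0 of 17 passed, against 0% of all, and 0 had B, limma's log odds of a difference, above 0, against 0.169% of all. At an unadjusted p under 0.05 there was 1, the second of Acta2, higher in diabetic mice, where 10.6% of all probe sets reached that p, namely 5.78% higher and the rest lower. The 95% interval for Myh11 ran from -0.27 to 0.33 and for Cnn1 from -0.28 to 0.54, so changes inside these intervals were not excluded. Negative differences were found in 2 of 17 probe sets, against 51.7% of all, and the groups did not overlap in 0 of 17, against 6.07% of all. Leaving out single mice moved the median, to 0.02 for numbers 1, 3 and 5, to 0.03 for number 8, and to between 0.12 and 0.17 for numbers 2, 4, 6 and 7.

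The second comparison concerned diabetes in the Apoe/RAGE null aorta, and here most values were lower. Of the 10 genes 9 had a negative difference, with a median of -0.20 (log2) against -0.02 over all genes, and 15 of 17 probe sets were lower, against 55% of all. Smtn (-0.35 ± 0.23, SE), Cnn1 (-0.33 ± 0.21, SE) and Myl9 (-0.27 ± 0.18, SE) were among them, and Des differed in the other direction (0.38 ± 0.21, SE). None of these was called: 0 of 17 were under a limma adjusted p of 0.05 (0% of all) and 0 had B above 0 (0.00888% of all). The third probe set of Mylk (-0.52 ± 0.21, SE; limma adjusted p = 0.674) was the 1 of 17 with an unadjusted p under 0.05, which 7.26% of all reached, 3.65% being lower. The groups did not overlap in 3 of 17 probe sets, against 6.49% of all: the brightest and the third of Acta2 were lower on every diabetic array (4.08% of all were so) and the brighter of Des higher (2.41% of all). Without replicates 9 and 10 again 0 passed limma and 15 of 17 were lower, with a median of -0.26. The median was -0.12 with number 11 left out and -0.32 with number 15 left out.

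Markers of skeletal muscle differed alongside, without passing. Of the 15 markers 14 had a positive difference with a median of 3.65 (log2), 0 passed limma at an adjusted p of 0.05, and 14 did not overlap between the groups, all higher, as did 2.41% of all probe sets. Without replicates 9 and 10 again 14 of 15 were positive, with a median of 4.38. Myh1, a fast myosin heavy chain of skeletal muscle, differed by 5.29 ± 0.96 (SE; limma adjusted p = 0.457). Desmin is also made in skeletal muscle, and the part of such tissue in the values of Des and the other members was not tested. In bulk RNA, moreover, fewer smooth muscle cells and less RNA of these genes per cell cannot be told apart.

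The third comparison concerned RAGE deletion in the absence of diabetes, and the contractile genes showed the smallest differences of all here. Of the 10 genes 6 were positive (Apoe/RAGE null minus Apoe null) and 4 negative, with a median of 0.01 (log2), and every gene lay between -0.15 (Des) and 0.14 (Myocd). Of the 17 probe sets 7 were lower (51% of all), 0 passed limma (0% of all), 0 had B above 0 (0% of all), 0 had an unadjusted p under 0.05 (2.57% of all) and 0 did not overlap between groups (4.77% of all). The 95% intervals still reached from -0.33 to 0.33 for Myh11, from -0.49 to 0.40 for Cnn1 and from -0.63 to 0.38 for Smtn. With 4 and 3 mice, differences inside these intervals were thus not excluded. The median took either sign when single arrays were left out, from -0.06 without non-diabetic Apoe null replicate 5 to 0.11 without non-diabetic Apoe/RAGE null replicate 15.

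The fourth comparison concerned RAGE deletion among diabetic mice, and it gave the widest differences of the set. Of the 10 genes 9 were lower in diabetic Apoe/RAGE null than in diabetic Apoe null aortas, with a median of -0.28 (log2) against -0.0021 over all genes. Myocd (-0.76 ± 0.27, SE), Smtn (-0.55 ± 0.22, SE), Cnn1 (-0.51 ± 0.19, SE), Myl9 (-0.36 ± 0.17, SE) and Mylk (-0.31 ± 0.12, SE) each had an unadjusted limma p under 0.05. The second probe set of Acta2 gave -0.71 ± 0.19 (SE) but the brightest -0.12 ± 0.07 (SE), and Des gave 0.39 ± 0.19 (SE).

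After adjustment over all probe sets none of these differences held. The number called by limma was 0 of 17, against 0.244% of all, and the smallest adjusted p was 0.109, for the second of Acta2. B was above 0 for 0 of 17, against 0.713% of all. At an unadjusted p under 0.05 there were 9 of 17, all of them lower, where 14.8% of all reached that p and 9.21% were lower, and 15 of 17 were lower, against 51% of all. These 9 stood for 7 genes and include 3 probe sets of Mylk, which read the same gene. Myh11 was among them only by its dimmer probe set (-0.32 ± 0.15, SE), while the brighter gave -0.26 ± 0.14 (SE). The groups did not overlap in 2 of 17, the brightest and the second of Acta2, both lower, against 6.5% of all and 4.7% lower.

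The count lower at an unadjusted p under 0.05 rested on few arrays. It was 6 without replicates 9 and 10, where 1 probe set was higher at that p and the median was -0.34. Of all probe sets 8.54% were lower and 7.89% higher by that rule. The count lower was 3 without diabetic Apoe null replicate 1 (7.17% of all) and 4 without replicate 3 (6.57%). It was 3 without diabetic Apoe/RAGE null replicate 11 (7.88%) and 5 without replicate 10 (8.51%). Without replicate 3, and again without replicate 10, 1 probe set was higher at that p (3.39% and 6.26% of all). The median without replicate 11 was -0.20. Myocd was -0.96 without replicates 9 and 10 (limma adjusted p = 0.118). The second of Acta2 passed (limma adjusted p = 0.0499) when non-diabetic Apoe null replicate 5, an array outside the contrast that enters only through the shared spread, was left out. Of the 15 skeletal muscle markers 13 were higher in diabetic Apoe/RAGE null aortas, with a median of 1.96 (log2; 2.36 without replicates 9 and 10), and their part was not tested here either.

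**Figure D2:**
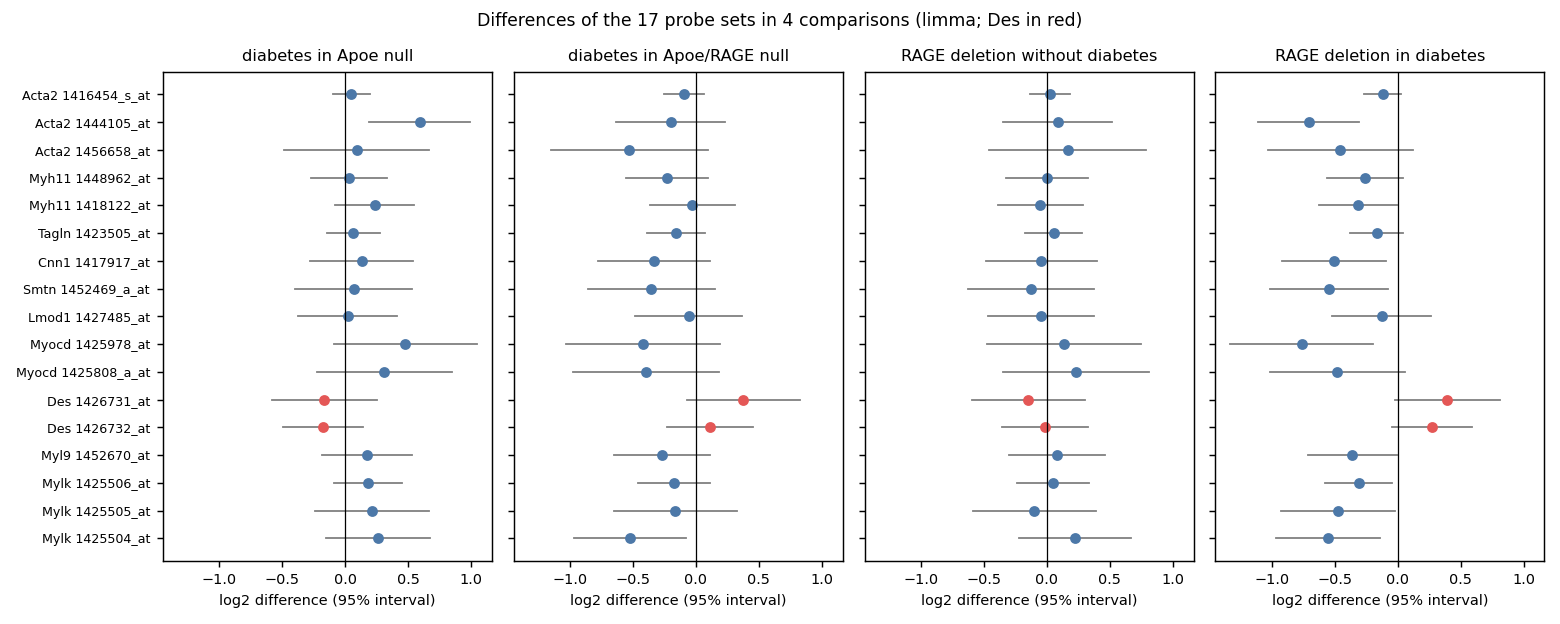
Log2 differences of the 17 probe sets in the 4 comparisons, with 95% intervals from limma (first group named in each title minus its control; Des in red, the other genes in blue). In the last panel 15 of 17 points lie left of 0, with the second of Acta2 at -0.71 and the brighter of Myocd at -0.76, and the 2 Des probe sets lie right of 0.

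The 2 diabetes contrasts were then set against each other. The interaction, the diabetes difference in Apoe/RAGE null minus that in Apoe null aortas, was negative for 9 of 10 genes, with a median of -0.31 (log2). It was -0.90 ± 0.39 (SE) for Myocd, -0.79 ± 0.28 (SE) for the second of Acta2 and -0.78 ± 0.28 (SE) for the third of Mylk, and 0.54 ± 0.29 (SE) for Des. These first 3 were the ones with an unadjusted p under 0.05, which 7.22% of all reached, 4.92% being lower, and 15 of 17 were lower, against 49.6% of all. The number called by limma was 0 of 17 (0% of all), with a smallest adjusted p of 0.675, and B was above 0 for 0 of 17 (0% of all). Without replicates 9 and 10 the count at an unadjusted p was 2, the median -0.37 and the number called 0. The diabetes effect on the contractile genes was therefore not shown to differ between genotypes.

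The order of the 4 groups was nearly the same for most probe sets. Diabetic Apoe null aortas were highest in mean for 14 of 17 probe sets and diabetic Apoe/RAGE null aortas lowest for 15, with the non-diabetic groups between them for 14. Without replicates 9 and 10 the counts of highest and lowest were again 14 and 15. The exceptions at the top were both Des probe sets and the third of Acta2, where non-diabetic Apoe/RAGE null aortas led. The non-diabetic groups, neighbours in that order, overlapped in every probe set. Group means spanned 0.12 (the brightest of Acta2) to 0.76 (the brighter of Myocd), against a pooled SD within groups of 0.07 and 0.42 for the same probe sets. Group membership took a median of 28.1% of the variance over the 17 probe sets, against 28.6% over all probe sets at or above the median level. The spread between mice of 1 group was larger, with a median SD of 0.29 for members against 0.19 for those brighter probe sets.

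Most of the variation was shared between members and cut across the groups. With group means removed, the 36 pairs among the 9 genes other than Des had Pearson r from 0.40 to 0.97 over the 15 arrays, with a median of 0.86. Cnn1 and Smtn were closest at 0.97, while Lmod1 and Myocd were least alike. The 9 pairs that include Des had r from 0.12 to 0.41, with a median of 0.25. These correlations are a description: members share the array, its RNA and its normalization. For genes with several probe sets, r between them was 0.73 to 0.90 in Acta2, Myh11, Mylk and Myocd, and 0.14 in Des.

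Single arrays carried this pattern. Of the 9 genes other than Des, replicate 1 was among the 5 highest arrays for 9, replicates 3 and 6 for 8 each, and replicates 7 and 13 for 7 each. Replicates 5 and 11 were among the 5 lowest for 9 genes each, replicate 10 for 8 and replicate 15 for 6. High and low arrays therefore stood side by side within the groups: diabetic Apoe null replicates 1 and 3 had mean scores (9 genes, each centred on its mean) of 0.30 and 0.35 against -0.14 in replicate 2, and non-diabetic Apoe null replicate 6 had 0.23 against -0.22 in replicate 5. In diabetic Apoe/RAGE null mice the scores were 0.04, -0.30, -0.48 and -0.05.

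**Figure D3:**
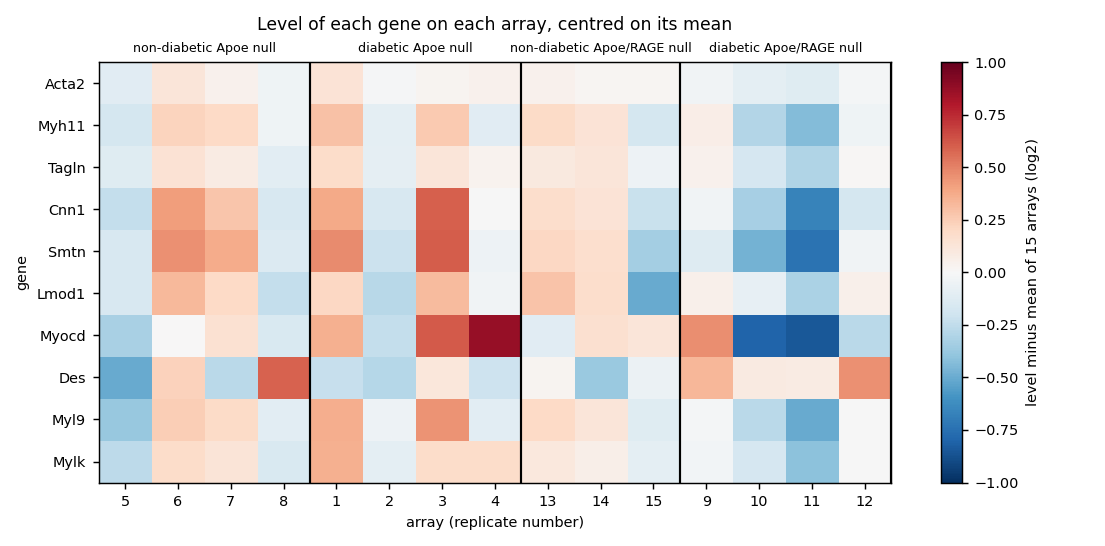
Level of each of the 10 genes (rows) on each of the 15 arrays (columns, by replicate number within groups), minus the gene's mean over all arrays (log2; red high, blue low). Columns 1, 3, 6 and 7 are red and columns 5, 10 and 11 blue down most rows, and the Des row departs, with high readings on replicates 8 (8.67) and 12 (8.53).

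The genes most like the contractile set in this respect were sought among 9087 other genes at or above the median gene level, by Pearson r with the mean of the 10 members over the 15 arrays, group means removed. They were Ilk (0.98), integrin-linked kinase, Tgfb1i1 (0.97), a focal adhesion protein also known as Hic-5, Rras (0.97), a small GTPase, Pdlim7 (0.96), a PDZ-LIM protein of actin filaments, Rbpms (0.96), an RNA-binding protein, and Ppp1r12a (0.96), the targeting subunit of myosin phosphatase. Over all 15 arrays with groups left in, r was 0.95 to 0.98 for these 6. Tgfb1i1, Pdlim7 and Ppp1r12a were also in lists of related genes described next.

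Other genes of the contractile pathway were described from lists written for this tissue. Of 17 other genes of thin filaments, dense bodies and intermediate filaments, 16 were lower in diabetic Apoe/RAGE null than in diabetic Apoe null aortas, with a median of -0.44 (log2), and 0 passed limma at an adjusted p of 0.05, with 11 lower at an unadjusted p under 0.05, as were 9.21% of all probe sets. The counts were again 16 and 11 without replicates 9 and 10, with a median of -0.48. The smallest p belonged to Vcl, vinculin, which ties actin to adhesions (-0.62 ± 0.15, SE; limma adjusted p = 0.083), Nexn, nexilin (-0.62 ± 0.17, SE), and Actg2, gamma smooth muscle actin (-0.64 ± 0.19, SE). In the diabetes contrast 16 of the 17 were positive in Apoe null (median 0.13) and 16 negative in Apoe/RAGE null mice (median -0.29), and in RAGE deletion without diabetes 10 were positive (median 0.03), with 0 passing in each. These contrasts share groups of mice, so their values are given side by side only.

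Among 10 measured genes that set myosin phosphorylation, 9 were lower in diabetic Apoe/RAGE null than in diabetic Apoe null aortas (median -0.29, log2), and 0 passed limma, with 4 lower at an unadjusted p under 0.05 (9.21% of all probe sets). The counts were 9 and 2 without replicates 9 and 10, with a median of -0.24. The 4 included Ppp1r14a, an inhibitor of myosin phosphatase also known as CPI-17 (-0.57 ± 0.20, SE), and Prkg1, the cyclic GMP-dependent kinase that relaxes smooth muscle (-0.41 ± 0.14, SE), each with a limma adjusted p of 0.194. Genes that promote and genes that oppose contraction thus lay on the same side. In the other 3 contrasts 0 of the 10 passed, with medians of 0.18, -0.16 and 0.07 for diabetes in Apoe null, diabetes in Apoe/RAGE null and RAGE deletion without diabetes.

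Of 15 measured regulators around SRF, 13 were lower in the diabetic Apoe/RAGE null group (median -0.16, log2), 0 passed limma and 4 were lower and 1 higher at an unadjusted p under 0.05, against 9.21% and 5.6% of all probe sets, so the share higher was near that of all. With replicates 9 and 10 left out, 12 were lower (median -0.26), 5 of them at that p. Srf itself gave -0.60 ± 0.18 (SE; limma adjusted p = 0.137) and Csrp2, a LIM protein that assists SRF, gave -0.60 ± 0.16 (SE; limma adjusted p = 0.106), and the 1 higher was Klf5, a factor of growing smooth muscle (0.47 ± 0.21, SE). With diabetes in Apoe null mice all 15 were positive, with a median of 0.11, 0 passing, and Gata6 (0.48 ± 0.16, SE) and Elk3 (0.51 ± 0.18, SE) having the smallest p. In diabetic Apoe/RAGE null against non-diabetic Apoe/RAGE null aortas 9 of the 15 were negative and 6 positive, with a median of -0.06 (-0.06 without replicates 9 and 10), and 0 passed.

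Markers of dedifferentiated smooth muscle lay on the same side as the contractile genes in some comparisons and on the other side in others. Of 8 measured, 6 were lower in diabetic Apoe/RAGE null than in diabetic Apoe null aortas (median -0.27, log2), and 0 passed limma, with 3 lower at an unadjusted p under 0.05 (9.21% of all probe sets). These counts were 7 and 4 without replicates 9 and 10, with a median of -0.38. Myh10, non-muscle myosin of growing smooth muscle (-0.85 ± 0.17, SE; limma adjusted p = 0.058), and Tpm4, a cytoskeletal tropomyosin (-0.34 ± 0.12, SE), were lower with no overlap between the groups, as were 4.7% of all probe sets. With diabetes in Apoe null mice 7 of the 8 were positive (median 0.31), among them Tpm4 (0.38 ± 0.12, SE), Lgals3, galectin-3 (0.49 ± 0.20, SE), and Vcam1, an adhesion molecule (0.74 ± 0.31, SE), with limma adjusted p between 0.347 and 0.432. With diabetes in Apoe/RAGE null mice, where 9 of the 10 contractile genes were lower, 5 of the 8 were positive (median 0.14, or 4 of 8 and 0.01 without replicates 9 and 10). Among them were Lgals3 (0.64 ± 0.22, SE) and Vcam1 (0.75 ± 0.33, SE), and 0 passed. At an unadjusted limma p under 0.05, 2 of the 8 were higher and 2 lower, against 3.6% and 3.65% of all probe sets. Without replicates 9 and 10 these counts were 0 and 0. In this comparison with all arrays, macrophage markers were higher in 10 of 10 and endothelial markers in 11 of 12, where 55% of all probe sets were lower. Which cells of the whole aorta gave the Lgals3 and Vcam1 readings was not tested. In RAGE deletion without diabetes 6 of the 8 were negative (median -0.12), and 0 passed.

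Markers of other cell types were set beside these values in the fourth comparison. White adipocyte markers were higher in diabetic Apoe/RAGE null aortas in 9 of 9 (median 0.40, log2) and brown adipocyte markers in 5 of 7 (median 0.70). Also higher were endothelial markers in 7 of 12 (median 0.08), macrophage markers in 8 of 10 (median 0.23) and cardiac muscle markers in 8 of 12 (median 0.41). Adventitial fibroblast markers were lower in 9 of 9 (median -0.21) and pericyte markers in 5 of 7 (median -0.08), where 51% of all probe sets were lower. At an unadjusted limma p under 0.05, 6 white adipocyte, 5 brown adipocyte, 2 endothelial and 1 macrophage marker were higher (5.6% of all). By that rule 4 fibroblast and 2 pericyte markers were lower (9.21% of all). Without replicates 9 and 10 the macrophage markers were higher in 5 of 10 (median 0.0036) and the fibroblast markers lower in 7 of 9 (median -0.09). White adipocyte markers were then higher in 9 of 9 (median 0.68) and brown in 6 of 7 (median 1.12). Endothelial markers were higher in 8 of 12 (median 0.11), cardiac in 8 of 12 (median 0.70), and pericyte markers lower in 5 of 7 (median -0.04). In that fit 7 white adipocyte markers were higher and 1 fibroblast marker lower at an unadjusted p under 0.05 (7.89% and 8.54% of all).

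In the diabetes comparison of Apoe null mice, white adipocyte markers were lower in 9 of 9 (median -0.57), 6 of them at an unadjusted p under 0.05 and 3 with no overlap, where 4.86% and 2.58% of all probe sets were so. Brown adipocyte markers were lower in 5 of 7 (median -0.95), all 5 at that p, and macrophage markers higher in 9 of 10 (median 0.24). In the diabetes comparison of Apoe/RAGE null mice, macrophage markers were higher in 10 of 10 (median 0.54), 7 of them at an unadjusted p under 0.05, as were 3.6% of all probe sets. They were, without replicates 9 and 10, again higher in 10 of 10 (median 0.40), 2 of them at that p. Endothelial markers were higher in 11 of 12 there (median 0.35; 12 of 12 and 0.42 without replicates 9 and 10). In these comparisons 0 marker genes passed limma at an adjusted p of 0.05, and their part in the contractile values was not tested.

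The relation of each member to 3 scores of other tissue, namely skeletal muscle, cardiac muscle and white fat, was examined over the 15 arrays. Of the 30 relations 0 passed after Benjamini-Hochberg adjustment of permutation p-values (2-sided, 100000 resamples), for Pearson's r (smallest adjusted p 0.169) as for Spearman's rho (smallest 0.188), with 8 and 4 at an unadjusted p under 0.05. Of those 8, 5 were negative relations with the skeletal muscle score, those of Cnn1, Smtn, Myh11, Tagln and Myl9 (permutation p from 0.0139 to 0.0476), and the others were Des and Lmod1 with the cardiac score and Mylk with the white fat score. Lmod1 and the cardiac score gave r = -0.52 (permutation p = 0.0454, adjusted 0.169; rho = -0.57, permutation p = 0.0301, adjusted 0.188), and -0.69 without replicates 5 and 8. Des and the cardiac score gave r = 0.60 (permutation p = 0.0154, adjusted 0.169; rho = 0.38, permutation p = 0.160, adjusted 0.233), which became 0.21 without replicates 5 and 8, so this relation rests on those samples. Mylk and the white fat score gave r = -0.55 (permutation p = 0.0345, adjusted 0.169; rho = -0.58, permutation p = 0.0242, adjusted 0.188), which became -0.31 without replicates 1 and 3.

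The skeletal muscle scores fell into 2 clusters, one of 8 arrays from -1.98 to -0.71 and one of 7 arrays from 0.78 to 2.63, so the size of r over all arrays is not given for any of the 10 genes. The higher cluster held all 4 diabetic Apoe/RAGE null arrays, diabetic Apoe null replicates 2 and 4 and non-diabetic Apoe null replicate 8. Within the clusters Pearson r lay between -0.17 and 0.11 in the lower and between -0.11 and 0.34 in the higher for the 10 genes, and 0 of 20 relations had an exact permutation p under 0.05 before adjustment (smallest adjusted p 0.986). For Des, r was -0.07 (exact permutation p = 0.859) and 0.33 (exact permutation p = 0.477), with rho of 0.02 (exact permutation p = 0.977) and 0.29 (exact permutation p = 0.556). Without the 2 arrays farthest from each cluster's median r for Des was -0.33 and -0.02, and over the 10 genes it was -0.77 to -0.04 in the lower and -0.78 to 0.05 in the higher cluster, with 6 and 5 arrays left.

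**Figure D4:**
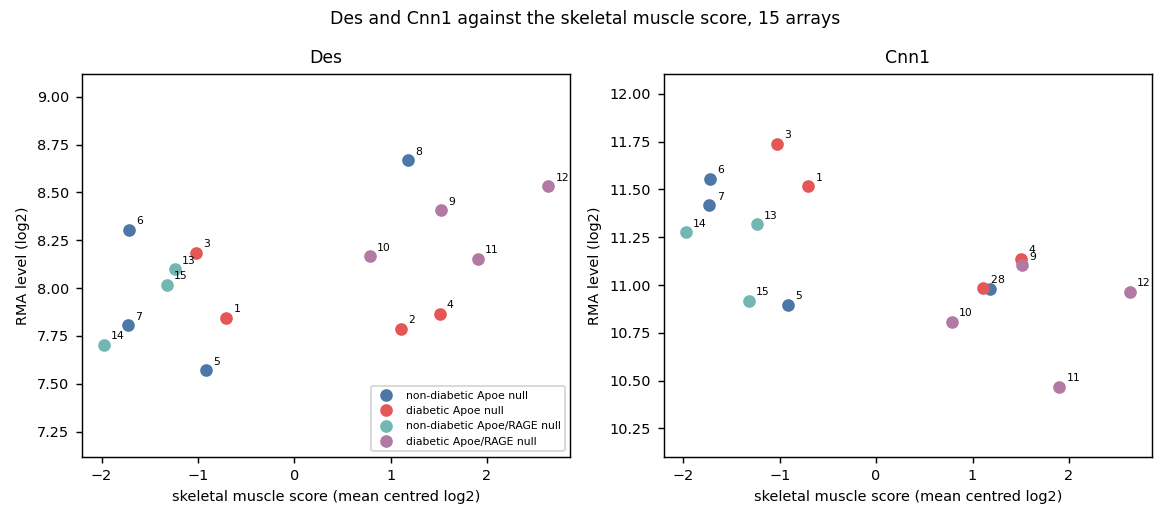
RMA level (log2) of Des (left) and Cnn1 (right) against the skeletal muscle score (mean of 15 centred markers, log2), 1 point per array with its replicate number, coloured by group; both genes were picked with their values known. The arrays form 2 clusters along the score, from -1.98 to -0.71 and from 0.78 to 2.63, and the 4 diabetic Apoe/RAGE null arrays all lie in the higher one.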

How the data were processed

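RNA from 15 whole mouse aortas had been hybridised to Affymetrix expression arrays, 1 per mouse. Per the submitters' processing notes the authors summarised the arrays by RMA, and the deposited levels are on the log2 scale. The series' design text leaves unclear whether all arrays went through RMA at once or group by group, which would bear on every difference between groups. RMA's quantile step gives the arrays nearly the same distribution, and very bright probe sets can be compressed, which was not tested here. The values were used as deposited. Of 45101 probe sets 64 controls were left out. Of the 45037 tested 34945 had 1 gene, 932 several and 9160 no gene listed. Symbols are those of a 2016 annotation of the array. For the 34741 probe sets matched by Entrez ID to a RefSeq table (GRCm38.p6), the symbol of that table was used, whether or not it differed. The brightest probe set stood for a gene where one was needed.

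Tests used limma (version 3.58.1, R 4.3.3): 1 model of all arrays with a mean for each group, moderated by eBayes, and p-values adjusted by Benjamini-Hochberg across every probe set, at 0.05. Alternatives were B above 0 (the submitters' threshold), only the compared groups, array weights, quantile normalization, the brighter probe sets alone, a variance trend with robust moderation, centring on array medians, and leaving out arrays. The fit was tested on simulated data. The members and lists were chosen with earlier results of these data known, so members get no list test. Named genes were the members, Ager, Apoe, up to 3 genes of smallest p per list and comparison, and the 6 most like the members. Relations within clusters of the skeletal muscle score and marker lists without replicates 9 and 10 were added after the data were seen. Promoters came from RefSeq (GRCm38.p6). Figures were drawn with matplotlib 3.10.9. A gene of the lists that the naming rule would give is not reported here.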

Additional observations from a re-analysis of the deposited data

How the results depend on the processing

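The number of the 17 probe sets passing limma was 0 in all 5 comparisons under every alternative run, except in RAGE deletion in diabetes, where it ranged from 0 to 1 over the arrays left out in turn (1 without non-diabetic Apoe null replicate 5). No alternative gave a call of opposite sign. Among differences that were not called, the sign changed under some alternative in 6 of 17 probe sets for diabetes in Apoe null, 2 for diabetes in Apoe/RAGE null, 13 for RAGE deletion without diabetes, 0 for RAGE deletion in diabetes and 1 for the interaction. The median over the 10 genes moved by less than the spread between replicates (0.20, log2 SD) under each alternative. With the mean of the brighter probe sets of each gene it was -0.39 for RAGE deletion in diabetes. That spread is of single arrays, so it is a wide yardstick for a median of group differences and cannot show that the median is stable. Over single arrays left out, the median ran from 0.02 to 0.17 for diabetes in Apoe null and from -0.06 to 0.11 for RAGE deletion without diabetes. For RAGE deletion in diabetes the count over all probe sets was 110. It was 321 with B above 0, 253 without the dimmer probe sets, 53 with array weights and 22 without replicates 9 and 10. The same count was 0 with only the compared groups, and 0 to 931 over single arrays left out. With only the compared groups the count over all probe sets was 5, 12 and 5 in diabetes in Apoe null, diabetes in Apoe/RAGE null and RAGE deletion without diabetes, against 0, and B above 0 gave 76 and 4 in the first 2. In diabetes in Apoe null it was also 7 with array weights, 1 with quantile normalization or without the dimmer probe sets, and 0 to 3 over single arrays left out; in diabetes in Apoe/RAGE null 0 to 49 over single arrays left out; in RAGE deletion without diabetes 9 without replicates 9 and 10. The interaction uses all groups, so that alternative was not run for it. The count of relations with tissue scores stayed at 0 under the 4 alternatives run. No paired analysis was possible because the groups share no replicate numbers. Signal near the top of the scale may limit the brightest Acta2 probe set and Tagln, and signal near background the second Des probe set, which was not tested.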
